A study of Mus musculus with 6 samples.

Results

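The mitochondrial respiratory chain and ATP synthase were examined in neutrophils as 101 protein-coding genes of the 54838 genes in the deposited tables. Members were chosen by gene symbol in the GENCODE M21 annotation of GRCm38, and grouped by complex and by genome of origin, a rule that uses no measured value. Of these, 88 are encoded in the nucleus (38 in complex I, 4 in complex II, 9 in complex III, 18 in complex IV, 18 in complex V and Cycs, the gene of cytochrome c) and 13 in the mitochondrial genome (7 in complex I, 1 in complex III, 3 in complex IV and 2 in complex V). The cells were sorted by flow cytometry from corneas of mice infected for 24 h with PAO1, a strain of the bacterium Pseudomonas aeruginosa. The groups were WT and Il1a-/-, the latter lacking IL-1 alpha, an inflammatory cytokine, and each had 3 libraries. Both groups were infected, and no uninfected group was analysed here. The labels give replicate numbers but no animals, ages or strains, so p-values measure only how these libraries spread.

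The respiratory chain passes electrons from NADH, which enter at complex I, and from succinate, which enter at complex II, through ubiquinone to complex III, cytochrome c and complex IV, where oxygen is reduced. Complexes I, III and IV pump protons, and complex V, the ATP synthase, uses the gradient to make ATP. Complex II is built from nuclear genes alone, whereas the others combine nuclear subunits with a few made inside the organelle. Neutrophils are known for few mitochondria and a strong reliance on glycolysis, and their mitochondria are best known for roles in migration and cell death.

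The mitochondrial genes had to be read with the nuclear copies of mitochondrial DNA in view, since the deposited counts are in the layout of the aligner STAR. In that layout a read that maps equally well to more than 1 place, or that falls in overlapping gene models, is assigned to no gene in the count used. On chromosome 1, minus strand, 24611535 to 24616197 (GRCm38), 7 annotated pseudogenes carry stretches of 100 bases or more of mitochondrial genes with an identity of at least 99%. The following stretches are shown because they mark the difference between mitochondrial genes with and without such a copy. Each is printed in the direction of its own transcript. The opening 90 bases of mt-Co2 (mitochondrial chromosome, 7013 to 7696, plus strand) and of its chromosome 1 copy Gm28661 (24614885 to 24615565) held 0 differences, as did the whole match of 681 bases.

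mt-Co2: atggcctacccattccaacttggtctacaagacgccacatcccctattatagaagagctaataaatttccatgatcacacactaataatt
Gm28661: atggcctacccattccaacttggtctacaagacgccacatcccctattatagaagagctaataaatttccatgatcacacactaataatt

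The copy of mt-Cytb (mitochondrial chromosome, 14145 to 15288, plus strand) on chromosome 4, Gm11410 (80003989 to 80005131, plus strand), differed at 81 of 1142 aligned bases. Bases 2 to 91 of both are printed with the 5 bases that differ in capitals.

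mt-Cytb: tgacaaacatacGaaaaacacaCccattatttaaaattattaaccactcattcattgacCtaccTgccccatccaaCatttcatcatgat
Gm11410: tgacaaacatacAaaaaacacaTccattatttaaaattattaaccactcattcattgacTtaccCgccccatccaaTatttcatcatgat

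The chromosome 1 copy of mt-Nd4 (mitochondrial chromosome, 10167 to 11544, plus strand), Gm28439, ends within the gene. Bases 832 to 921 of mt-Nd4 are printed with the bases that the copy also holds in capitals, and base 876 is the last of them.

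mt-Nd4: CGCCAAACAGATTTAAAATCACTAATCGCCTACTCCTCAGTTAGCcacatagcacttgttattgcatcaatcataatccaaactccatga

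The libraries held 22855676 to 33626008 gene counts each. Il1a was at 136694, 192428 and 272865 counts in the WT libraries and at 92, 174 and 118 in the knockout libraries, so each library had the Il1a level of its label. All 15 neutrophil markers were tested and summed to 50895 ± 2556 CPM in WT and 48439 ± 1706 CPM in the knockout (CPM, counts scaled to the normalized library size; mean ± SD with n = 3, here and in all that follows). Markers of monocytes and macrophages summed to 595 to 639 CPM in WT and 712 to 739 CPM in the knockout, without overlap. Single genes stood apart in this direction for 6.12% of all tested genes. Most of the sum came from Cd68, Csf1r and Adgre1, at WT means of 308, 178 and 68.3 CPM. Their log2 fold changes were 0.17, 0.21 and 0.22. Of the 15 tested genes of the list, 12 had estimates above 0. Of these 15, edgeR called 0, DESeq2 4 and limma-voom 0, against 12, 69 and 12 of all tested genes. On the unadjusted p, 9 of the 15 passed edgeR, against 5.99% of all tested genes. Lyve1 was among these 9 and went the other way, with a log2 fold change of -3.24. None of the 18 genes of that list was at 0 in all libraries. Dendritic cell markers summed to 196 to 272 CPM in WT and 239 to 322 CPM in the knockout, those of the corneal epithelium to 20.2 to 141 and 27.3 to 118 CPM, and those of T and NK cells to under 2 CPM in each library. Macrophages carry mitochondria too, and the part of these cells in the values of the respiratory chain was not tested. The library that differed most from the rest was knockout replicate 2, with a score of 67.3 on principal component 1 where the others ran from -32.9 to 2.1.

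None of the respiratory chain genes passed the test between the genotypes. In edgeR's quasi-likelihood test of 11924 genes, with a threshold of 0.05 on the adjusted p, 0 of 85 tested members were called, against 0.101% of all tested genes (12 genes). That was 0 members higher in the knockout, against 0.0755%, and 0 lower, against 0.0252%. With the threshold on the unadjusted p instead, 0 members passed, against 5.99% of all tested genes. DESeq2 and limma-voom also called 0 members, and 3 and 1 members passed them on the unadjusted p. The smallest adjusted p among the members in edgeR was 0.836, for Atp5d, a subunit of the central stalk of ATP synthase. Over the alternatives tried, the smallest adjusted p of any member ranged from 0.354, without knockout replicate 1, to 0.9996.

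The medians of the nuclear and of the mitochondrial members differed in sign, and the difference between them was not tested. The median log2 fold change, knockout minus WT, was -0.08 over the 78 tested nuclear members and 0.28 over the 7 tested mitochondrial members, beside 0.00 over all tested genes. Estimates were below 0 for 50 of the 78 nuclear members (64.1%), against 49.3% of all tested genes, and above 0 for 7 of the 7 mitochondrial members, against 50.7%. Scaling by library size alone gave a nuclear median of -0.03, with 43 of the 78 nuclear members below 0, and a mitochondrial median of 0.32, with 7 of 7 above it, where the median of all genes was 0.06. Without knockout replicate 2, 6 of the 7 mitochondrial members were above 0 and their median was 0.07, and without WT replicate 1 it was 0.45. Leaving out single libraries moved the nuclear median between -0.15 and -0.01.

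**Figure D1:**
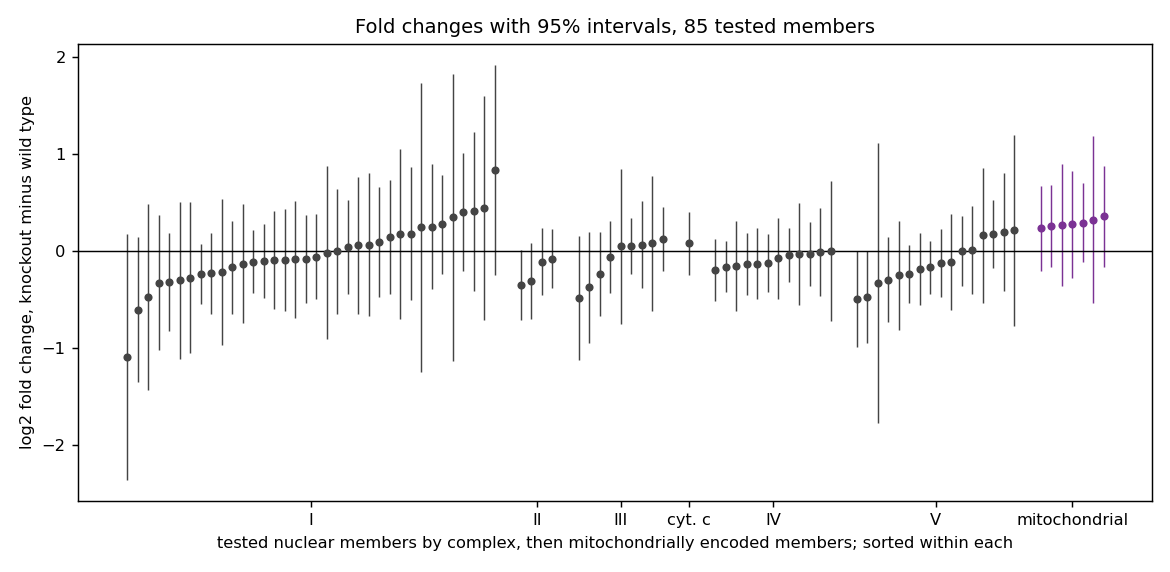
Log2 fold changes, knockout minus WT, on the vertical axis for the 85 tested members on the horizontal axis, grouped by complex for nuclear genes and then for mitochondrially encoded genes. Points are edgeR estimates and lines are 95% confidence intervals: the estimates run from -1.09 (Ndufa9) to 0.84 (Ndufab1), and all 85 members had an adjusted p of 0.836 or more.

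Among the mitochondrial genes, 7 carried nearly all the counts. These were mt-Nd1, mt-Nd2, mt-Co1, mt-Nd4, mt-Nd5, mt-Nd6 and mt-Cytb, with 40909 of the 41012 counts of the 13 genes (99.7%). The other 6 genes lie next to each other from 7013 to 10173 on the mitochondrial chromosome and held 103 counts (0.251%) in all libraries together. They are mt-Co2 and mt-Co3, which encode core subunits of complex IV, mt-Atp6 and mt-Atp8 of ATP synthase, and mt-Nd3 and mt-Nd4l of complex I.

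Counts of these 6 genes were at or near the floor. The floor of 3 counts stood at 0.0892 to 0.131 CPM across the libraries, for counting error only. Across both groups there were 27 counts for mt-Co2, 25 for mt-Atp6, 36 for mt-Co3 and 15 for mt-Nd3. For mt-Atp8 and mt-Nd4l there were 0 counts in every library. Their neighbours on either side, mt-Co1 and mt-Nd4, held 15081 and 4345 counts.

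Of the 6 genes with few counts, 5 had a near-identical copy of almost their whole length. The copy held 681 of the 684 bases of mt-Co2, 678 of 681 of mt-Atp6, 783 of 784 of mt-Co3, 345 of 348 of mt-Nd3 and 294 of 297 of mt-Nd4l. mt-Atp8, a gene of 204 bases (7766 to 7969), follows mt-Co2 and overlaps the start of mt-Atp6 (7927 to 8607). For mt-Atp8 no match of 100 bases or more was found among annotated transcripts, and the genome outside them was not searched. On chromosome 1 the copies of its neighbours, Gm28661 (from 24614885) and Gm10925 (up to 24614651), leave a stretch between them. That stretch was not compared with mt-Atp8. Of mt-Co1, 31.3% of the bases were in a near-identical copy, and of mt-Nd4 63.6%. The 7 copies on chromosome 1 held 424 counts in all, more than the 103 of the 6 mitochondrial genes and far fewer than those of mt-Co1 or mt-Nd4. None of mt-Nd1, mt-Nd2, mt-Nd5, mt-Nd6 or mt-Cytb had a match of 99% identity over 100 bases. How many reads of the 6 genes went uncounted was not tested, so their levels say nothing of how much of these transcripts the cells held.

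**Figure D2:**
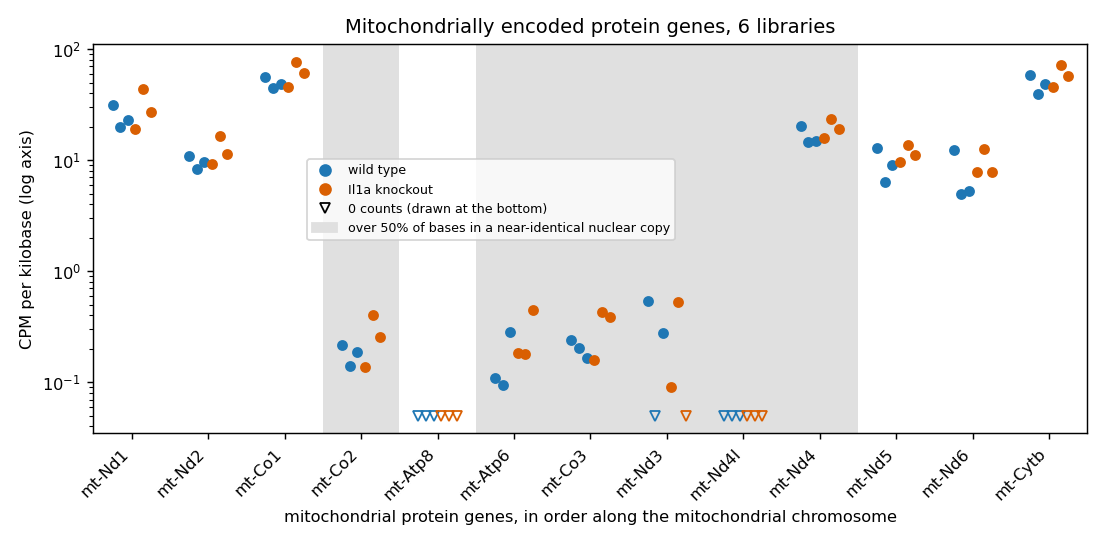
Level of each mitochondrially encoded protein gene in CPM per kilobase (vertical log axis) in order along the mitochondrial chromosome (horizontal axis), with 1 point per library, WT in blue and knockout in orange. Shading marks genes with over 50% of their bases in a near-identical nuclear copy, and open triangles mark libraries with 0 counts: mt-Co2 to mt-Nd4l sit below 1 CPM per kilobase, and the 7 other genes sit above it.

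Per kilobase of transcript, mt-Co1 and mt-Cytb were the most abundant of the 7 tested mitochondrial genes, at 55.6 and 53.7 CPM per kilobase. mt-Co1 is the catalytic subunit of complex IV, and mt-Cytb is the only mitochondrial subunit of complex III. The 6 genes at or near the floor could not be ranked. Levels per kilobase were 27.4 for mt-Nd1, 18.0 for mt-Nd4, 11.0 for mt-Nd2, 10.4 for mt-Nd5 and 8.48 for mt-Nd6. With all counts of the gene divided by only the bases without a near-identical copy, mt-Nd4 stood at 49.4 CPM per kilobase and mt-Co1 at 80.9. These are upper limits, since which bases the counted reads came from was not tested. mt-Nd4 thus ranked below mt-Nd1 with the one divisor and above it with the other, so its rank was not settled. mt-Nd6 is the only one of these 7 on the minus strand. Since the library kit does not mark strand, its reads cannot be told apart from those of transcripts of the opposite strand. For mt-Nd6 the sum of the strand columns was 1.56 times the count used, against 1.07 over all genes, so its level is uncertain.

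In each of the 7 tested mitochondrial genes the groups overlapped, and knockout replicate 2 was the highest library. WT replicate 2 was the lowest library in 6 of them and knockout replicate 1 in 1. Knockout replicate 2 was also the highest library for 10 of the 18 monocyte and macrophage markers and for 0 of the 15 neutrophil markers. Among the former, chosen after their values were seen, C1qb was at 2.11, 8.29 and 4.02 CPM in knockout replicates 1 to 3, F13a1 at 8.42, 30.2 and 12.3 CPM, and Pf4 at 4.24, 12.1 and 9.96 CPM, the same order as the summed mitochondrial members. That order held for 10 of the 18 markers. Among those it did not hold for, Csf1r was at 230, 196 and 190 CPM in knockout replicates 1 to 3. Adgre1 was at 86.4, 79.8 and 72.1 CPM there, and Cd68 at 337, 331 and 377 CPM. The whole list summed to 712, 726 and 739 CPM, also in another order. The part of these markers in the mitochondrial values was not tested. mt-Co1 was at 86.9, 69.6 and 74.9 CPM in WT replicates 1 to 3 and at 70.2, 119 and 94.7 CPM in knockout replicates 1 to 3. The log2 fold change of mt-Co1 was 0.30 (SE 0.18, 95% interval from -0.11 to 0.71, edgeR adjusted p = 0.92).

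For mt-Cytb the levels were 66.8, 45.1 and 55.7 CPM in WT and 52.3, 82.3 and 66.0 CPM in the knockout. Its log2 fold change was 0.26 (SE 0.19). mt-Nd1, a membrane subunit of complex I near the site of quinone binding, was at 30.4, 18.9 and 21.9 CPM in WT and at 18.3, 41.8 and 25.9 CPM in the knockout. Both genes thus had their lowest knockout library, replicate 1, below the WT mean.

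mt-Nd2 was at 11.4, 8.66 and 9.94 CPM in WT and at 9.65, 17.0 and 11.9 CPM in the knockout, and at 0.36 (SE 0.23) had the highest log2 fold change of the 7. mt-Nd4 was at 27.9, 19.9 and 20.5 CPM in WT and at 21.8, 32.6 and 26.1 CPM in the knockout. mt-Nd5 was at 23.4, 11.5 and 16.6 CPM in WT and at 17.4, 24.9 and 20.2 CPM in the knockout. These genes encode membrane subunits of the proton-pumping arm of complex I, and none had groups that stood apart. mt-Nd6, also of that arm, was at 6.44, 2.58 and 2.73 CPM in WT and at 4.09, 6.51 and 4.06 CPM in the knockout, where WT replicate 1 nearly reached the highest knockout library.

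Summed over the 13 genes, mitochondrial protein transcripts were at 254, 177 and 203 CPM in WT and at 194, 325 and 250 CPM in the knockout. Nearly all of these counts (99.7%) came from 7 genes. Any reads that went uncounted are missing from these sums, from the shares and from the ratio to the nuclear sum. The means were 211 ± 39 and 256 ± 66 CPM with overlapping groups, a log2 ratio of 0.28. That ratio was 0.06 without knockout replicate 2, 0.44 without knockout replicate 1, 0.42 without WT replicate 1 and 0.17 without WT replicate 2. As a share of all gene counts, the 13 genes took 0.0264%, 0.0173% and 0.0188% in WT and 0.0204%, 0.0327% and 0.0250% in the knockout. Exact 95% binomial intervals of these shares, which cover counting error only, ran from 0.0168% to 0.0177% in the lowest library and from 0.0320% to 0.0333% in the highest.

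The ribosomal RNAs of the mitochondrial genome, which are no members and were chosen after their values were seen, gave a comparison on the same chromosome. mt-Rnr2 was at 685 ± 135 CPM in WT and 749 ± 106 CPM in the knockout, and mt-Rnr1 was at 50.6 ± 12.9 and 51.1 ± 9.98 CPM. mt-Rnr2 was above the counted sum of the 13 protein genes, in which 6 genes were at or near the floor. Nuclear copies of the ribosomal RNA genes were not searched for. In bulk libraries, differences in mitochondria per cell, in RNA per mitochondrion and in the mix of cells cannot be told apart.

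The 88 nuclear members summed to 1249, 1312 and 1170 CPM in WT and to 1222, 1131 and 1079 CPM in the knockout. The means were 1244 ± 71 and 1144 ± 73 CPM, the groups overlapped, and the log2 ratio was -0.12 (-0.06 by library size alone). The ratio of mitochondrial to nuclear sums was 0.203, 0.135 and 0.173 in WT and 0.159, 0.288 and 0.231 in the knockout. At 0.170 ± 0.034 and 0.226 ± 0.065 these values overlapped too, and the log2 ratio of the means (0.41) went from 0.20 without knockout replicate 2 to 0.61 without knockout replicate 1. It was 0.26 without WT replicate 2.

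**Figure D3:**
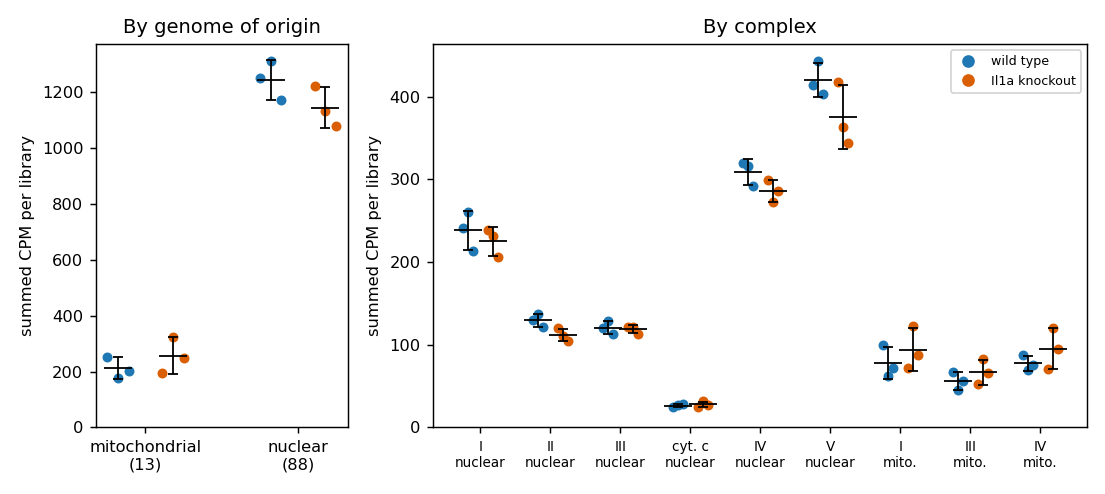
Summed CPM per library (vertical axes) of the members by genome of origin (left, with the number of genes) and by complex (right), WT in blue and knockout in orange, with black lines for mean ± SD of 3 libraries. Groups overlap in each sum except nuclear complex II, at 121 to 137 CPM in WT and 104 to 120 CPM in the knockout, and that sum overlaps too when scaled by library size alone.

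Levels of the nuclear members differed widely. On the scale of CPM, Atp5b, the catalytic beta subunit of ATP synthase, made up 14.8% of the nuclear sum at 177 CPM, and the 10 most abundant members made up 50.1%. Per kilobase of merged exons, Cox8a, a small subunit of complex IV, was the most abundant at 150 CPM per kilobase. Ndufa2, an accessory subunit of complex I, followed at 57.8, then Cox6b1 at 56.5 and Cox6a1 at 47.0, both small subunits of complex IV, and Atp5b at 41.7. With the length of a single transcript instead, Cox8a remained the most abundant at 169 CPM per kilobase and Atp5b moved to 92.3, so the order below Cox8a depended on the length used. At the other end, 20 of the 101 members had a mean under 1 CPM and 5 had 0 counts in every library. Those 5 were mt-Atp8, mt-Nd4l, Cox7b2, Cox8c and a second annotated entry of Atp5o.

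**Figure D4:**
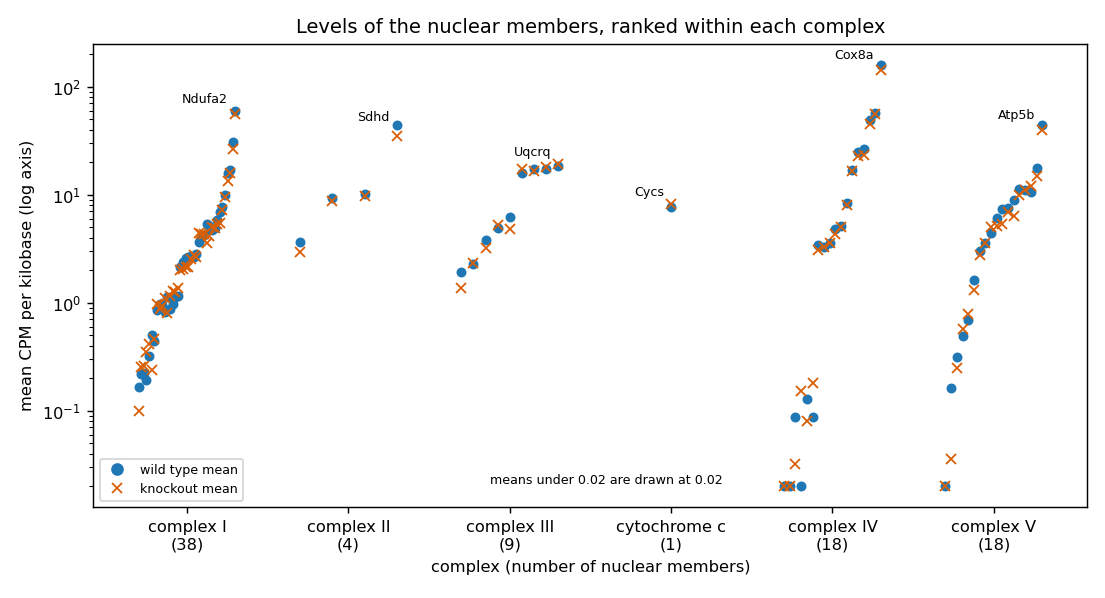
Mean CPM per kilobase of merged exons (vertical log axis) for the 88 nuclear members, ranked within each complex (horizontal axis), with WT means as blue points and knockout means as orange crosses. The most abundant member of each complex is named: Cox8a stands highest, and some members of complexes I, IV and V lie below 1 CPM per kilobase.

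Complex I, which takes electrons from NADH, had 36 of its 38 nuclear members tested, 21 with estimates below 0 and 15 above, and a median log2 fold change of -0.07. Its nuclear sum was 238 ± 23 CPM in WT and 225 ± 18 CPM in the knockout. The most abundant members per kilobase of merged exons were Ndufa2, Ndufa1 and Ndufa3, all small accessory subunits. With the length of a single transcript instead, Ndufa7 stood at 50.6 CPM per kilobase, below Ndufa2 at 57.8. It was then above Ndufa3 at 32.7 and Ndufa1 at 28.6, so this order depended on the length used. Ndufa2 was at 31.5, 40.3 and 30.9 CPM in WT and at 31.9, 31.2 and 32.4 CPM in the knockout, where the knockout libraries lay within the WT range. Ndufa1, an X-linked gene, was at 12.9 ± 1.6 and 11.0 ± 1.5 CPM, and Ndufa3 at 17.4 ± 2.4 and 16.3 ± 1.5 CPM. Subunits that carry the electrons themselves are given by 3 examples. Ndufs1, with iron-sulfur clusters of the NADH-oxidising arm, was at 7.95 ± 1.31 and 7.08 ± 0.85 CPM, and Ndufv1, which binds the flavin, at 7.18 ± 1.79 and 6.76 ± 1.76 CPM. For Ndufs8, which also binds iron-sulfur clusters, the means were 4.72 ± 0.36 CPM in WT and 5.71 ± 0.69 CPM in the knockout, a log2 fold change of 0.28. Ndufs1, Ndufv1 and Ndufs8 were chosen after their values were seen, and their groups overlapped.

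The complex I members with the smallest p were Ndufa9 and Ndufa8. Ndufa9 was at 0.936, 0.837 and 1.42 CPM in WT and at 0.251, 0.555 and 0.699 CPM in the knockout, without overlap, on 137 counts in all. Its log2 fold change of -1.09 (SE 0.57, 95% interval from -2.36 to 0.18, edgeR adjusted p = 0.87) was the lowest of all members. Ndufa8 was at 4.68, 4.99 and 4.25 CPM in WT and at 4.65, 2.22 and 2.27 CPM in the knockout, so that knockout replicate 1 lay within the WT range and the other knockout libraries well below it. The highest estimate, 0.84 for Ndufab1, the acyl carrier protein of mitochondria, had WT libraries at 0.749, 1.38 and 1.87 CPM and knockout libraries at 1.41, 3.89 and 1.88 CPM. Ndufab1 was chosen after its value was seen, and knockout replicate 2 alone was clearly above the WT range.

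Complex II, succinate dehydrogenase, links the chain to the citric acid cycle. All 4 of its genes had estimates below 0, and its sum did not overlap between groups, with 130, 137 and 121 CPM in WT and 120, 111 and 104 CPM in the knockout (129 ± 8 and 112 ± 8 CPM). By library size alone these sums overlapped, at 135, 135 and 112 CPM in WT and 126, 112 and 105 CPM in the knockout, and no gene of the complex passed the test. Sdhd, a membrane anchor, was at 52.0, 62.0 and 49.6 CPM in WT and at 47.1, 47.2 and 34.3 CPM in the knockout. Its log2 fold change was -0.35 (SE 0.16, 95% interval from -0.70 to 0.01, edgeR adjusted p = 0.84). Sdhc, the other anchor, was at 11.3, 12.6 and 11.4 CPM in WT and at 9.46, 10.3 and 8.73 CPM in the knockout (log2 fold change -0.31, SE 0.18). The groups did not overlap for either anchor, as for 5.48% of all tested genes with the knockout below WT, and by library size alone Sdhd overlapped, with WT replicate 3 at 45.9 and knockout replicate 1 at 49.6 CPM. The catalytic genes lay nearer to each other, with Sdha, which binds the flavin, at 42.1 ± 4.0 and 39.9 ± 3.5 CPM and Sdhb, which carries the iron-sulfur clusters, at 20.9 ± 1.5 and 19.4 ± 2.3 CPM.

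Complex III, which passes electrons from ubiquinol to cytochrome c, had all 9 nuclear members tested, 4 below 0 and 5 above, with a median log2 fold change of 0.05. Its nuclear sum of 121 ± 8 CPM in WT and 119 ± 5 CPM in the knockout was the closest between groups of the 5 complexes. Uqcrq was at 33.7 ± 2.4 and 35.0 ± 1.2 CPM, Uqcr10 at 10.2 ± 1.3 and 10.6 ± 2.0 CPM, and Uqcrh, the hinge protein, at 21.3 ± 3.1 and 20.5 ± 2.2 CPM. These small subunits were the most abundant of the complex per kilobase of merged exons, at 18.8, 17.8 and 16.9 CPM per kilobase. With the length of a single transcript instead, Uqcrh stood highest of them at 38.2 CPM per kilobase. Uqcrc2, a core subunit, was at 6.25, 4.93 and 3.54 CPM in WT and at 3.21, 3.27 and 4.06 CPM in the knockout. Uqcrb, a subunit near the quinone site, was at 4.68, 6.86 and 4.95 CPM in WT and at 3.68, 4.72 and 4.37 CPM in the knockout. At log2 fold changes of -0.48 (SE 0.29) and -0.37 (SE 0.26), both had groups that overlapped in single libraries. Cycs, the mobile carrier that also triggers apoptosis when released, was at 24.5, 26.6 and 28.0 CPM in WT and at 25.0, 31.6 and 27.1 CPM in the knockout (log2 fold change 0.08, SE 0.15).

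Complex IV, cytochrome c oxidase, had the most uneven members. Of 18 nuclear members, 12 were tested, 11 with estimates below 0 and 1 above, with a median log2 fold change of -0.10 and a nuclear sum of 309 ± 15 CPM in WT and 286 ± 13 CPM in the knockout. Cox8a was at 105, 98.8 and 90.6 CPM in WT and at 89.5, 81.9 and 92.5 CPM in the knockout, and the groups overlapped in a single library of each (log2 fold change -0.16, SE 0.12). Cox6b1 was at 40.5 ± 2.4 and 39.4 ± 1.1 CPM, Cox6a1 at 34.5 ± 4.0 and 31.4 ± 2.3 CPM, and Cox7a2 at 25.2 ± 1.5 and 22.0 ± 1.8 CPM. For all 12 tested members the 95% interval stayed inside a 2-fold difference either way.

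Several subunits of complex IV exist as a common form and a form known from muscle, testis, lung or low oxygen. Cox4i2, the form known from lung and low oxygen, was the only alternative form that was tested, at 3.29 CPM per kilobase against 23.6 for Cox4i1. It made up 12.2% of the pair per kilobase of merged exons, from 11.4% to 12.0% in WT and 8.43%, 14.7% and 15.3% in knockout replicates 1 to 3. With the length of a single transcript instead, Cox4i2 stood at 3.53 and Cox4i1 at 47.9 CPM per kilobase, so this share depended on the length used. Cox4i1 also overlaps the gene model of Emc8, and the sum of its strand columns was 1.22 times the count used. Cox4i2 was at 2.51, 2.67 and 2.57 CPM in WT and at 1.79, 3.11 and 2.88 CPM in the knockout, on both sides of the WT libraries (log2 fold change 0.00, SE 0.33). The other alternative forms were close to the floor, with 12 counts in all for Cox7a1, 12 for Cox6b2, 10 for Cox6a2 and 6 for Cox8b. Cox7b2 and Cox8c had 0 counts. Their common partners Cox7a2, Cox6b1, Cox6a1 and Cox8a held 4161, 7033, 5797 and 16313 counts, and Cox7b held 1100. Ndufa4l2, a form known from low oxygen, had 27 counts against 1225 for Ndufa4, and 16 of its 27 lay in WT replicate 2. Ndufa4 and Ndufa4l2 were grouped by symbol and are counted in complex I in all sums and medians here.

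Complex V, the ATP synthase, was the most abundant complex in nuclear CPM, at 414, 443 and 403 CPM in WT and 418, 363 and 343 CPM in the knockout. Of 18 nuclear members, 16 were tested, 10 with estimates below 0 and 6 above, with a median of -0.14. Atp5b was at 181, 188 and 191 CPM in WT and at 186, 170 and 145 CPM in the knockout (log2 fold change -0.16, SE 0.12). Atp5a1, the alpha subunit that pairs with it in the catalytic head, was at 50.7, 61.4 and 52.8 CPM in WT and at 50.4, 47.1 and 42.7 CPM in the knockout. For Atp5b knockout replicate 1 lay within the WT range, and for Atp5a1 the nearest libraries were at 50.7 and 50.4 CPM and overlapped with DESeq2 size factors and by library size alone.

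Atp5d and Atp5h had the smallest p of all members. Atp5d was at 20.5, 18.3 and 12.3 CPM in WT and at 13.9, 9.96 and 12.5 CPM in the knockout, and these overlapped (log2 fold change -0.49, SE 0.22, 95% interval from -0.98 to 0.00, edgeR adjusted p = 0.84). Atp5h, a subunit of the outer stalk, was at 10.9, 11.2 and 10.6 CPM in WT and at 9.15, 8.57 and 5.81 CPM in the knockout, and these did not (log2 fold change -0.47, SE 0.21). Transcripts of Atp5h also matched 5 annotated copies at 90% identity or more. Atp5mpl, a small membrane subunit, went the other way at 12.6, 13.7 and 12.5 CPM in WT and 14.2, 14.4 and 15.2 CPM in the knockout (log2 fold change 0.18, SE 0.16).

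The rotating c ring is encoded by 3 genes that give the same mature protein. Atp5g3 was at 6.52 ± 1.09 CPM in WT and 6.04 ± 0.49 CPM in the knockout, Atp5g1 at 3.37 ± 0.48 and 3.87 ± 0.53 CPM, and Atp5g2 at 0.522 ± 0.193 and 0.418 ± 0.134 CPM. Per kilobase of merged exons these were 2.88, 0.737 and 0.280 CPM over all libraries. Of the Atp5g2 transcript, 88.2% was matched at 100% identity by the pseudogene Gm10175, which had 0 counts, so the level of Atp5g2 is uncertain in the same way as those of the mitochondrial genes with copies.

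Among the 85 tested members, 9 had groups without overlap (10.6%), against 11.6% of all tested genes. Knockout libraries were above WT for Ndufa10 and Atp5mpl (2.35% of members, against 6.12%) and below for Ndufa7, Ndufa9, Sdhc, Sdhd, Cox6c, Atp5a1 and Atp5h (8.24%, against 5.48%). Ndufa7, an accessory subunit of complex I, was at 28.3, 30.1 and 28.4 CPM in WT and at 25.5, 22.3 and 25.9 CPM in the knockout. Ndufa10, also an accessory subunit, was at 3.29, 3.86 and 2.57 CPM in WT and at 4.24, 4.53 and 4.11 CPM in the knockout. Cox6c, a small subunit of complex IV, was at 12.1 ± 0.3 and 11.1 ± 0.4 CPM. Ndufa7, Ndufa10 and Cox6c are named because their groups did not overlap, a choice made after their values were seen. Under the 4 other scalings, 6 to 11 members had groups without overlap, and Atp5h, Atp5mpl, Ndufa10, Ndufa9 and Sdhc were among them each time. The share of members whose groups stood apart was near the background.

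The intervals show how large a change these libraries left room for. For 68 of the 85 tested members (80.0%) the 95% interval stayed inside a 2-fold difference either way, against 51.9% of all tested genes. It stayed inside 1.5-fold for 30 members, all of them nuclear. The median interval reached 0.50 to either side of the estimate on the log2 scale for the members and 0.70 for all tested genes. These intervals are wider in complex I, where 23 of the 36 tested nuclear members lay within 2-fold, than in complex IV, where 12 of 12 did. The median level of the same tested members was 4.15 CPM in complex I and 17.6 CPM in complex IV. Over all 85 tested members the median level was 9.31 CPM, against 4.26 CPM over all tested genes.

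Copies touched the nuclear members as well. For 15 of 88, another annotated transcript covered 50% or more of the member's transcript with an identity of at least 90%, with 13 such copies for Atp5l. The median log2 fold change was -0.09 for the members with such a copy and -0.08 for those without. Near-identical stretches, of at least 99% identity over 100 bases or more, were found in 10 nuclear members, some of them in the group without a copy. In that group they covered 46.9% of the transcript of Ndufs5, 45.1% of Cox5b, 40.2% of Ndufb4 and 36.2% of Ndufa12. They also covered 30.3% of Cycs, 13.5% of Ndufab1 and 8.72% of Atp5g1. Their effect on the levels and on the medians was not tested. For 6 nuclear members the sum of the strand columns was more than 1.5 times the count used. Those were Cox5a, Ndufb6, Ndufa11, Atp5l, Ndufab1 and Ndufb2, at ratios of up to 2.79 (Cox5a) against 1.07 over all genes. Their levels are therefore uncertain, and they are named for this ratio, after it was seen.

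No gene in lists of related pathways passed the test either. Of 37 tested assembly factors of the complexes, 26 genes of mitochondrial transcription and biogenesis, 18 of the citric acid cycle, 23 of other electron entry, quinone synthesis and nucleotide exchange, and 14 switches linked to oxygen and inflammation, edgeR called 0 in each list and direction, and DESeq2 and limma-voom also called 0. Their median log2 fold changes were 0.03, 0.03, -0.06, 0.01 and 0.01. On the unadjusted p, 2 assembly factors (Ndufaf1 and Atpaf2), 1 gene of mitochondrial transcription (Tfam) and 0 genes of the other lists passed in edgeR, at or below the 5.99% of all tested genes. Ndufaf1, an assembly factor of complex I, was at 1.24, 0.740 and 1.38 CPM in WT and at 2.77, 1.94 and 3.41 CPM in the knockout, without overlap (log2 fold change 1.27, SE 0.40, edgeR adjusted p = 0.60). Tfam, which packages and transcribes mitochondrial DNA, was at 0.187, 0.193 and 0.161 CPM in WT and at 0.912, 0.432 and 0.349 CPM in the knockout (log2 fold change 1.63, SE 0.73). Atpaf2, an assembly factor of ATP synthase, had a log2 fold change of 1.44 (SE 0.58) at 0.487 to 0.966 CPM in WT and 0.742 to 3.36 CPM in the knockout. All 3 are low genes, and Tfam in WT was close to the floor of 3 counts. The other genes with the smallest p in their lists had log2 fold changes of 0.48 (Oxa1l), -0.41 (Ssbp1), 0.34 (Mtpap), -1.11 (Idh3a), 0.31 (Idh3g), -0.66 (Fh1), -1.38 (Dhodh), -0.77 (Coq8a), 0.19 (Higd1a), 0.43 (Lonp1) and -0.15 (Egln3). Slc25a5, a carrier that exchanges ATP for ADP across the inner membrane, was at 63.8, 77.2 and 67.3 CPM in WT and at 69.1, 53.2 and 54.8 CPM in the knockout, with overlap. Acod1, which makes the succinate dehydrogenase inhibitor itaconate, was by far the most abundant gene of these lists, at 8450, 9392 and 10242 CPM in WT and 8814, 9209 and 10760 CPM in the knockout. Acod1 was chosen after its level was seen, and its log2 fold change was 0.04 (SE 0.12).

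Chromosome 2, which also carries Il1a, holds 6 nuclear members, and the nearest of them, Cox4i2, lies 23.5 Mb from Il1a.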

How the data were processed

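RNA of 6 libraries, 3 per genotype, was purified with RNeasy Micro and made into libraries with the SMART-Seq v4 kit, which does not mark strand, per the labels' protocols. Tools in the submitters' processing notes are STAR 2.7.8a, Trimmomatic 0.39 and FastQC 0.11.9, with GRCm38 as build, and the annotation release is not given in the sources used here. Whole-number counts per gene were deposited by the authors, not normalized, as an unstranded and 2 strand columns, and the files hold no rows without a gene. The unstranded column was used. Symbols, positions and lengths came from GENCODE M21, which holds 54809 of the 54838 genes.

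Counts were kept by edgeR's expression filter (11924 genes), scaled by TMM and fitted in edgeR 4.0.16 under R 4.3.3 (quasi-likelihood test with the robust option), knockout against WT, with Benjamini-Hochberg adjustment over all tested genes and a threshold of 0.05. A member that passed the filter could do so through 1 group. CPM used the TMM-scaled library size. An exact two-sided permutation test of 3 against 3 libraries reaches 0.1 at best, and none was run. Transcripts of members were compared with all annotated transcripts by blastn 2.17.0. The procedure was tested on simulated data.

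Members, lists and tests were chosen with earlier results of these data known. The text names all mitochondrial members, the 3 most abundant members per kilobase and the 2 with the smallest p in each nuclear complex, isoform pairs, the c ring and the companion genes with the smallest p. Any other gene in the text was chosen with its values known. Alternatives were other scalings and filters, limma-voom 3.58.1, DESeq2 1.42.0, a replicate block, the strand columns and each library left out. The split by copies and the scalings of the complex II sum were added later, with the data in view. Plots were made with matplotlib 3.10.9.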

Additional observations from a re-analysis of the deposited data

How the results depend on the processing

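The count of members called stayed at 0 in each direction under all 16 alternatives, which were the other scalings, filters, tests, count column and libraries left out. For the 38 named members that were tested, 595 of 600 values under the alternatives moved by less than the spread between replicates, and 26 genes kept their sign in each alternative that gave a value. The ratio of mitochondrial to nuclear sums kept its direction in every setting it was computed for. It was not recomputed for the filters, limma-voom, DESeq2's test or the block, which do not enter a sum of CPM over all members.

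Replicate numbers were not shown to pair the libraries: correlations of same-numbered libraries, as deviations from the group means, were 0.14, 0.057 and 0.0034. With the replicate block, 20 genes were called of all, against 12 without it, 0 of them members, and the nuclear and mitochondrial medians were -0.09 and 0.27. Over all genes, DESeq2 called 69 and the test without a filter 185, while without knockout replicate 1 there were 24 and without WT replicate 1 or 2 there were 7; the cause was not tested. Low counts limit the precision for the 20 members under 1 CPM.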
